A study of Mus musculus with 12 samples.

Results

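MHC (major histocompatibility complex) class II genes were followed in AEC2, the alveolar epithelial type 2 cells that line the air spaces and secrete surfactant. A list of 8 mouse genes was taken by symbol: the transactivator gene Ciita, the chain genes H2-Aa, H2-Ab1 and H2-Eb1, the invariant chain gene Cd74, the peptide-loading genes H2-DMa and H2-DMb1, and H2-Ob. All 8 were found among the 16080 Ensembl genes measured. RNA was sequenced from 12 AEC2 preparations of female Bl6 mice at postnatal day 56, with 4 libraries for each of 3 genotypes at Sftpc, the surfactant protein C (SP-C) gene. C185G is the mutant in the BRICHOS domain of SP-C, C185Gneo is the control that the series calls hypomorphic, and WT is the wild-type control. All 3 groups carry the same treatment label: intraperitoneal tamoxifen at 200 mg per kg on 2 days, and cell isolation on day 7. The labels name neither the allele or driver that responds to tamoxifen nor the animal behind each library. The p-values therefore rest on a spread between samples that may be only technical. Dispase released the cells, sticking to plastic took out mesenchymal cells, and bead kits made for T cell and dendritic cell isolation took out cells carrying CD45, the common leukocyte antigen.

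MHC class II molecules present peptides from the endosomal route to CD4 T cells. An alpha and a beta chain pair in the endoplasmic reticulum around the invariant chain, which guides them to endosomes, and H2-DM then exchanges a remnant of that chain for peptide. H2-DO, whose beta chain H2-Ob encodes, restrains H2-DM and is best known from B cells. Ciita is the master coactivator of these genes: it binds no DNA itself, and is held at their promoters by the RFX, CREB and NF-Y factors, which sit on conserved elements called the X and Y boxes. Unlike most epithelium, AEC2 are known to carry class II molecules without inflammation.

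Libraries held 15659512 to 23444287 counts, and 1 read was worth 0.0428 to 0.0616 normalized CPM (reads per 1000000, on the authors' scaling). Sftpc checked the labels: it averaged 2833 ± 256 normalized CPM in C185G, 895 ± 143 in C185Gneo and 7467 ± 194 in WT (SD, n = 4 each), so that the group called hypomorphic was the lowest. Groups follow the genotype field, since the library titles of the C185Gneo group carry the name C185G. All 14 AEC2 markers examined were measured in every library. Their summed level was 13747 to 17469 normalized CPM in C185G, 40258 to 45110 in C185Gneo and 36303 to 44700 in WT. In RNA from a whole preparation, fewer cells of a type and less RNA per cell cannot be told apart.

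Promoter sequence is shown first because class II genes are known to carry the X and Y boxes. Whether these elements bear on the levels below was not tested. RefSeq promoter windows (GRCm38.p6, 250 bases before to 50 after the annotated start) were at hand for 5 of the 8 genes. The stretches below run from 130 to 21 bases before the start, 5′ to 3′, on the gene's strand. Capitals mark an X box core (AGNAAC, then any 3 bases, then TG), a Y box (TGATTGG) or a cAMP response element (TGACGTCA), searched on both strands.
H2-Eb1 (chr17:34305737-34305846, plus strand): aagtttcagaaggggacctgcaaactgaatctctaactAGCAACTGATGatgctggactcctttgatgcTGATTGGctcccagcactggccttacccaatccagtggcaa
H2-DMb1 (chr17:34153061-34153170, plus strand): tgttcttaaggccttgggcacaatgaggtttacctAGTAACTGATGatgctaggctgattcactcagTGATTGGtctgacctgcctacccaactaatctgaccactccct
H2-Aa (chr17:34287844-34287953, minus strand): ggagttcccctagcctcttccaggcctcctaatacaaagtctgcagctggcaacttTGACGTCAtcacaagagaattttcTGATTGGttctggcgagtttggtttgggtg
H2-Ob (chr17:34238775-34238884, plus strand): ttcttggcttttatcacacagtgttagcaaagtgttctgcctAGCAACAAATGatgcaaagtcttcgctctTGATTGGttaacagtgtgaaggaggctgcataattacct

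The X box core began 92 bases before the start in H2-Eb1, 95 in H2-DMb1 and 88 in H2-Ob, and the Y box followed 31, 32 and 29 bases further on. H2-Aa held the Y box letters 50 bases and a cAMP response element 74 bases before its start, with no match to the X box core letters. Neither of the windows listed for H2-DMa held any of the motifs. Across all 32851 promoter windows of the same length, 4.18% held the X box core, 7.82% the Y box and 1.79% the cAMP response element. Both boxes on one strand with starts 25 to 40 bases apart were found in 4 windows (0.0122%), those of H2-Eb1, H2-DMb1, H2-Ob and H2-Eb2, another class II beta chain gene. The motif letters and this spacing were chosen with the class II windows in view, so these counts are a description. H2-Ob carried the paired letters and is the member whose level did not pass the test in any comparison.

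In C185G, 7 of the 8 genes were lower than in WT, and the same 7 were lower than in C185Gneo. H2-Ob was the exception in both comparisons. Ciita had the log2 fold change farthest from 0 against WT (-2.85), and H2-DMb1 had the smallest of the 7 (-1.11). The call (limma, Benjamini-Hochberg adjusted p under 0.05) was also made for 27.8% of all 16080 genes as lower and 27.3% as higher in C185G against WT. In C185G against C185Gneo it was made for 28.7% as lower and 29.2% as higher. All 7 genes were lower by more than 1 on the log2 scale, as were 6.5% of all genes against WT and 6.93% against C185Gneo. The C185G values of these 7 genes lay wholly below those of WT and of C185Gneo, which held for 23.5% and 24.2% of all genes. Both comparisons use the same C185G libraries. The median log2 fold change of the 8 genes against WT was -1.78, beside a median of 0 over all genes.

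**Figure D1:**
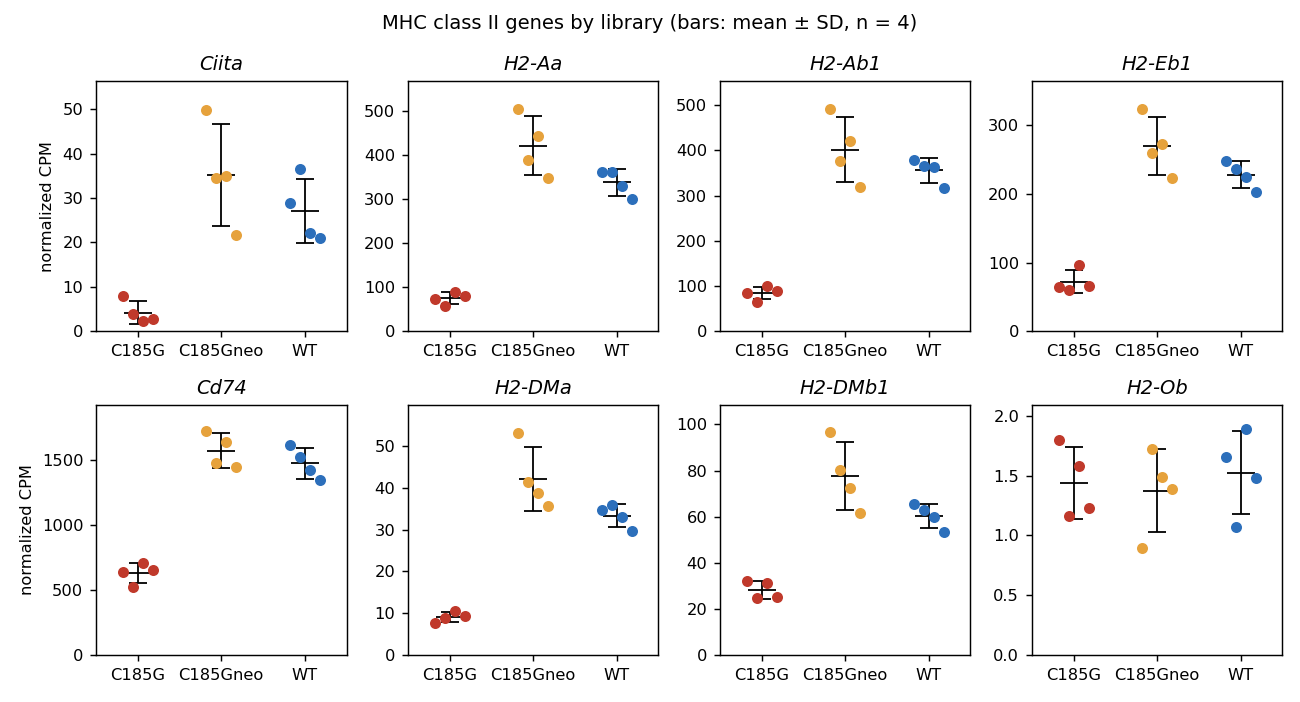
Normalized CPM (vertical axes, from 0) of the 8 MHC class II genes in each of 12 libraries, by genotype; points are libraries, bars the mean ± SD (n = 4). In all panels but that of H2-Ob the 4 C185G points lie below every C185Gneo and WT point.

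Ciita, the coactivator gene, had 8.03, 3.77, 2.23 and 2.65 normalized CPM in C185G replicates 1 to 4, against 49.8, 34.6, 34.9 and 21.7 in C185Gneo and 29, 36.6, 22.2 and 20.9 in WT. Whether the levels of the other genes depend on that of Ciita was not tested. Every C185G library was below every control library, and replicate 1 was the highest of the 4. These levels rest on 41 to 156 reads per C185G library, 374 to 1164 per C185Gneo library and 339 to 647 per WT library. Against WT the log2 fold change of Ciita was -2.85 with an SE of 0.382 (adjusted p = 8.56e-05), and against C185Gneo it was -3.20 (adjusted p = 3.25e-05). Its level was 7.19-fold lower in C185G than in WT, and 0.317% of all genes had a lower log2 fold change in that comparison. Ciita lies on chromosome 16 from 10480059 to 10528418 on the plus strand (GRCm38).

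H2-Aa encodes the alpha chain of the I-A molecule. It had 72.2, 57, 90 and 80.3 normalized CPM in C185G, 503, 389, 442 and 348 in C185Gneo, and 362, 362, 329 and 299 in WT. Every C185G library lay below every control library. Its log2 fold change was -2.19 against WT, with an SE of 0.139 (adjusted p = 9.03e-08), and -2.50 against C185Gneo (adjusted p = 2.47e-08).

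H2-Ab1 encodes the beta chain of I-A. Its levels were 84.5, 65.5, 99.5 and 88 normalized CPM in C185G, against 491, 376, 420 and 319 in C185Gneo and 378, 365, 363 and 316 in WT. The order of the C185G libraries, with replicate 3 highest and replicate 2 lowest, was that of H2-Aa. C185G overlapped neither control group, and the controls overlapped each other. The log2 fold change of H2-Ab1 was -2.09 against WT, with an SE of 0.138 (adjusted p = 1.18e-07), and -2.25 against C185Gneo (adjusted p = 5.28e-08).

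H2-Eb1, the beta chain gene of the I-E molecule, had 64.8, 60.5, 97.1 and 66.5 normalized CPM in C185G, 324, 260, 272 and 223 in C185Gneo, and 248, 237, 225 and 203 in WT. Replicate 3 stood above the other C185G libraries. The C185G values did not reach those of the controls. For H2-Eb1 limma gave -1.68 on the log2 scale against WT (SE 0.144, adjusted p = 1.14e-06) and -1.91 against C185Gneo (adjusted p = 3.4e-07). Mice of the C57BL/6 background are known to make no I-E alpha chain, so this beta chain has no usual partner there.

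Cd74 encodes the invariant chain. It had 640, 521, 708 and 656 normalized CPM in C185G, against 1723, 1480, 1642 and 1443 in C185Gneo and 1619, 1520, 1424 and 1344 in WT. All 4 C185G libraries were below all 8 control libraries. Cd74 was lower by a log2 fold change of -1.23 against WT (SE 0.0929, adjusted p = 1.4e-07) and -1.32 against C185Gneo (adjusted p = 6.07e-08). It made up 68 to 70.6% of all counts on the 8 genes in C185G libraries, 53.2 to 58.8% in C185Gneo and 57.9 to 59.3% in WT. Cd74 is the only member on chromosome 18 (60803848 to 60812652, plus strand).

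H2-DMa and H2-DMb1 encode the chains of the H2-DM peptide exchanger. H2-DMa had 7.62, 8.89, 10.6 and 9.36 normalized CPM in C185G, 53.2, 41.3, 38.7 and 35.6 in C185Gneo, and 34.8, 36, 33 and 29.6 in WT. H2-DMb1 had 31.9, 24.7, 31.2 and 25 in C185G, 96.9, 80.1, 72.4 and 61.7 in C185Gneo, and 65.5, 63, 59.9 and 53.5 in WT. Neither gene's C185G values reached those of a control library. Against WT the log2 fold change was -1.88 for H2-DMa (SE 0.124, adjusted p = 4.42e-08) and -1.11 for H2-DMb1 (SE 0.129, adjusted p = 1.17e-05). Against C185Gneo it was -2.20 for H2-DMa (adjusted p = 8.58e-09) and -1.45 for H2-DMb1 (adjusted p = 8.94e-07). H2-DMb1 has a near copy, H2-DMb2, and how the counting shared reads out among the pair is not known.

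H2-Ob, the beta chain gene of H2-DO, was near the low end of detection in every group, with 1.8, 1.16, 1.58 and 1.23 normalized CPM in C185G, 0.898, 1.72, 1.49 and 1.39 in C185Gneo, and 1.66, 1.07, 1.89 and 1.48 in WT. The groups overlapped fully. Each library held 19 to 35 reads of this gene. The log2 fold change was -0.07 in C185G against WT, with a 95% interval from -0.60 to 0.46 (adjusted p = 0.819), and 0.09 against C185Gneo, with an interval from -0.44 to 0.62 (adjusted p = 0.782). Falls of the size seen in the other 7 genes lie outside both intervals.

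**Figure D2:**
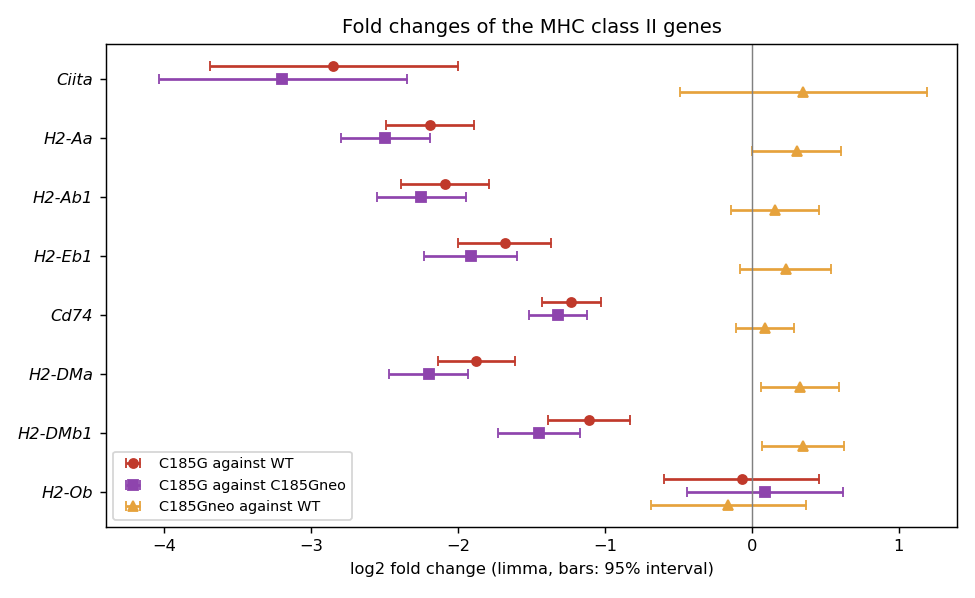
Log2 fold changes from limma (horizontal axis) of the 8 genes in 3 comparisons, with 95% intervals as bars. For 7 genes the intervals of both C185G comparisons lie below 0, between -4.04 and -0.83, and those of H2-Ob cross 0.

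In C185Gneo against WT, limma called 0 of the 8 genes, against 0.249% of all genes called higher and 0.292% lower. The groups overlapped for all 8, while 3.29% of all genes lay wholly lower and 3.57% wholly higher. At an unadjusted p under 0.05 the number was 3, beside 9.54% of all genes. With voom weights 0 were called and 3 had an unadjusted p under 0.05, beside 9.87% of all genes. The 3 of the first fit were H2-Aa at 0.31 (adjusted p = 0.518), H2-DMa at 0.33 (adjusted p = 0.403) and H2-DMb1 at 0.35 (adjusted p = 0.389), all with positive log2 fold changes. For 7 of the 8 genes the log2 fold change was above 0, between 0.09 for Cd74 and 0.35, and for H2-Ob it was -0.16. C185Gneo replicate 1, the deepest library, was the highest of its group for 7 of the 8 genes, and replicate 4 the lowest of its group for the same 7. In WT, replicate 4 was the lowest for these 7 genes too. Sftpc was lower in C185Gneo than in WT (log2 fold change -3.07, adjusted p = 5.93e-10).

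Levels of different genes were compared per kilobase of annotated exons. In C185G the order was Cd74 (376 CPM per kilobase), H2-Eb1 (37.2), H2-Ab1 (32.9), H2-Aa (19.7), H2-DMb1 (16.8), H2-DMa (2.64), Ciita (0.438) and H2-Ob (0.269). In C185Gneo it was Cd74 (936), H2-Ab1 (156), H2-Eb1 (139), H2-Aa (111), H2-DMb1 (46.3), H2-DMa (12.2), Ciita (3.7) and H2-Ob (0.256). In WT it was Cd74 (879), H2-Ab1 (138), H2-Eb1 (118), H2-Aa (88.9), H2-DMb1 (36), H2-DMa (9.68), Ciita (2.85) and H2-Ob (0.284). The exon lengths join all annotated transcripts, so a gene with long rare transcripts is understated. Some neighbours in this order overlapped between libraries: H2-Eb1 spanned 31.1 to 50 and H2-Ab1 25.5 to 38.8 CPM per kilobase in C185G, and 105 to 127 and 123 to 147 in WT. In C185Gneo, H2-Ab1 (124 to 191), H2-Eb1 (115 to 166) and H2-Aa (91.6 to 132) overlapped. H2-Aa (15 to 23.7) and H2-DMb1 (14.7 to 19) overlapped in C185G. Ciita (0.234 to 0.843) and H2-Ob (0.216 to 0.335) overlapped in C185G, and in WT Ciita spanned 2.19 to 3.84, above H2-Ob at 0.2 to 0.352.

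The genes of the pathway did not fall by the same factor. The ratio of Cd74 to H2-Aa within a library, per kilobase, was 20.1, 20.7, 17.8 and 18.5 in C185G, 7.75, 8.62, 8.41 and 9.38 in C185Gneo, and 10.1, 9.51, 9.79 and 10.2 in WT. All 3 groups were separate in this ratio, C185G above WT and C185Gneo below it. Two-sided exact permutation tests of the log2 ratio gave p = 0.0286 in each of the 3 comparisons, the smallest that 4 against 4 libraries allow. The adjusted p was 0.049 in each, over 12 comparisons of 4 ratios. At the smallest possible p, that adjusted value depends on how many ratios were taken. The pairs were drawn from members chosen with earlier results of these data known. Their ratios restate differences between the fold changes above, so passing adds no separate evidence.

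H2-DMb1 over H2-DMa was 8.58, 5.69, 6.05 and 5.48 in C185G, against 3.74, 3.98, 3.83 and 3.55 in C185Gneo and 3.86, 3.59, 3.72 and 3.71 in WT. C185G lay above both controls (exact permutation p = 0.0286, adjusted p = 0.049 in each), while C185Gneo and WT overlapped (exact permutation p = 0.6857). The chains of I-A stayed nearer to each other: H2-Ab1 over H2-Aa averaged 1.67 ± 0.052 in C185G, 1.41 ± 0.0392 in C185Gneo and 1.56 ± 0.0582 in WT (SD, n = 4 each). That ratio was higher in C185G than in C185Gneo (exact permutation p = 0.0286, adjusted p = 0.049) and did not pass against WT (exact permutation p = 0.0571, adjusted p = 0.0857). In C185Gneo it was lower than in WT (exact permutation p = 0.0286, adjusted p = 0.049). Ciita over H2-Aa overlapped between all groups (exact permutation p = 0.2857 and adjusted p = 0.3429 in each C185G comparison). Within C185G the library orders of these genes differed: replicate 3 was the lowest in Ciita and the highest in H2-Aa, and replicate 1 was the highest in Ciita and below replicates 3 and 4 in H2-Aa.

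**Figure D3:**
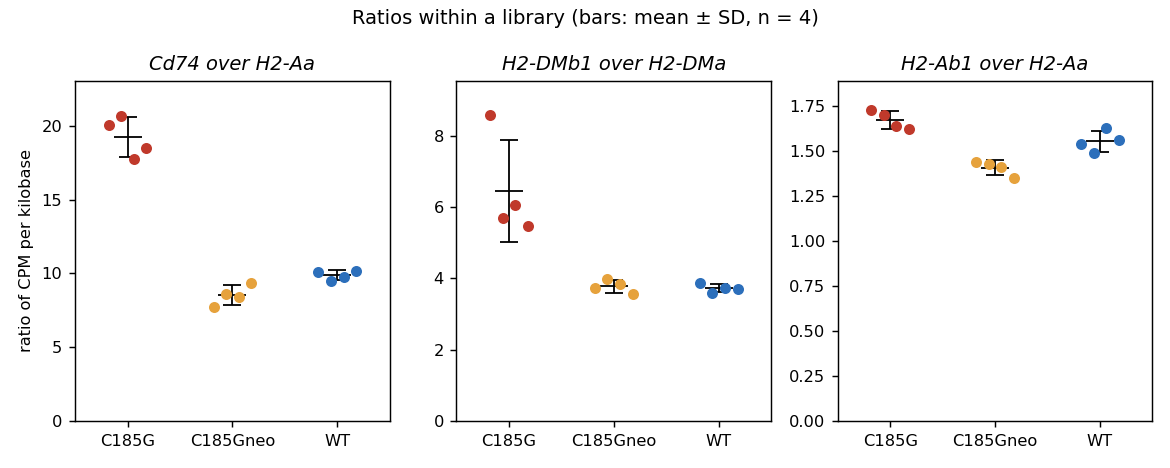
Ratios of CPM per kilobase within each library (vertical axes, from 0) for 3 pairs of class II genes; points are libraries, bars the mean ± SD (n = 4). The C185G points of Cd74 over H2-Aa (17.8 to 20.7) and of H2-DMb1 over H2-DMa (5.48 to 8.58) lie above all control points.

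Other class II genes and the factors that work with Ciita were read from lists. Of 6 further class II symbols, 2 were measured, and both were lower in C185G than in WT: H2-DMb2 (-1.69, adjusted p = 0.000214) and H2-Eb2 (-1.64, adjusted p = 0.00579). H2-DMb2 averaged 0.875 ± 0.0856 normalized CPM in C185G and 3.02 ± 1.03 in WT, and H2-Eb2 held 2 to 14 reads in each C185G library. Of 11 genes for factors at class II promoters, 7 were lower, 0 higher and 4 not called in C185G against WT. Their median was -0.23 and their range -0.48 to 0.11. Over all genes, 27.8% were called lower and 27.3% higher in that comparison. Rfxank, an RFX subunit, had 9.15 ± 0.906 normalized CPM in C185G and 12.7 ± 0.793 in WT (-0.48, adjusted p = 0.000553). The acetyltransferase genes Ep300 (-0.42, adjusted p = 6.5e-05) and Kat2b (-0.37, adjusted p = 0.000318), Nfyb of NF-Y (-0.33, adjusted p = 0.00142) and Creb1 (-0.33, adjusted p = 0.00217) were lower too. The DNA-binding RFX gene Rfx5 (0.11, adjusted p = 0.16) and Rfxap (-0.11, adjusted p = 0.233) were not called.

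Interferon gamma induces Ciita through its receptor, the kinases JAK1 and JAK2, and IRF1. Of 11 measured genes on this list, 5 were lower, 1 higher and 5 not called in C185G against WT, with a median of -0.11. The share over all genes was 27.8% lower and 27.3% higher. Irf1 had 93.1 ± 11.6 normalized CPM in C185G and 167 ± 32.8 in WT (-0.83, adjusted p = 0.000105). Irf2 (-0.47, adjusted p = 0.00219) and Socs1, the feedback inhibitor (-0.61, adjusted p = 0.00656), were lower as well. Ifngr2, a receptor chain, was higher, with 68.6 ± 2.87 normalized CPM in C185G and 38.7 ± 4.74 in WT (0.83, adjusted p = 2.98e-06).

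Proteases and other genes that prepare class II peptides moved in both directions. Of 12 measured, 6 were higher and 2 lower in C185G than in WT, with a median of 0.27. Among all genes, 27.3% were called higher and 27.8% lower. The endosomal protease genes Ctsd (1.29, adjusted p = 1.27e-09), Ctsz (0.99, adjusted p = 1.23e-07), Ctsh (0.94, adjusted p = 5.49e-07) and Lgmn (0.47, adjusted p = 9.11e-05) rose. Ctsd reached 817 ± 63.3 normalized CPM in C185G, against 334 ± 4.38 in WT. The thiol reductase gene Ifi30, known to be induced by interferon gamma, fell to 75.2 ± 2.39 in C185G, against 117 ± 8.72 in WT (-0.64, adjusted p = 1.82e-06). Sppl2a, the protease that cleaves the last membrane remnant of the invariant chain, fell by 0.26 (adjusted p = 0.0012). Ctss, the main invariant chain protease of dendritic cells and B cells, had 3.98 ± 1.28 normalized CPM in C185G and 3.26 ± 0.946 in WT (adjusted p = 0.463). Against C185Gneo, at 2.22 ± 0.662 normalized CPM, Ctss was called higher (0.82, adjusted p = 0.0261), though the libraries of the groups overlapped.

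Class I presentation, which shows cytosolic peptides to CD8 T cells, had 3 of 13 genes higher and 2 lower in C185G against WT, with a median of 0.04. Neither count was above the share over all genes (27.3% higher, 27.8% lower). H2-D1 averaged 1012 ± 74.4 normalized CPM in C185G and 827 ± 77.5 in WT (0.29, adjusted p = 0.0027). H2-K1 stood at 932 ± 90.4 in C185G and 905 ± 99.8 in WT (adjusted p = 0.673). Tapbp (0.43, adjusted p = 0.000144) and Tap2 (0.24, adjusted p = 0.0101), of the peptide-loading complex, were higher, and Psmb10, an immunoproteasome subunit (-0.65, adjusted p = 7.59e-05), and H2-T23 (-0.31, adjusted p = 0.00821) were lower. Nlrc5, the class I counterpart of Ciita, had 7.22 ± 1.74 normalized CPM in C185G and 5.31 ± 1.47 in WT (0.45, adjusted p = 0.0815).

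Costimulatory and checkpoint genes had 2 of 9 higher and 1 lower in C185G against WT, with a median of 0. Here too neither count was above the share over all genes (27.3% higher, 27.8% lower). Tnfsf9, the ligand of 4-1BB, had 29.3 ± 9.48 normalized CPM in C185G and 44.7 ± 6.92 in WT (-0.65, adjusted p = 0.0103). Against C185Gneo, at 32.6 ± 3.59 normalized CPM, it was not called (-0.20, adjusted p = 0.377). Icam1, an adhesion molecule (0.18, adjusted p = 0.0277), and Cd40 (0.64, adjusted p = 0.0421) were higher. The Icam1 call was lost without C185G replicate 3, WT replicate 2 or WT replicate 4 (adjusted p up to 0.0899). The Cd40 call against WT was lost without C185G replicate 1, 3 or 4 or WT replicate 1, 2 or 4 (adjusted p up to 0.117), with the replicate block (adjusted p = 0.0669) and with library quality weights (adjusted p = 0.0773). Against C185Gneo, Cd40 was higher by 0.99 (adjusted p = 0.00395), and that call held in all 20 alternatives that kept the gene. Its level was low, at 2.01 ± 0.396 normalized CPM in C185G and 1.02 ± 0.358 in C185Gneo. Cd86 (0.59, adjusted p = 0.148) and Vtcn1 (-0.19, adjusted p = 0.263) were not called.

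**Figure D4:**
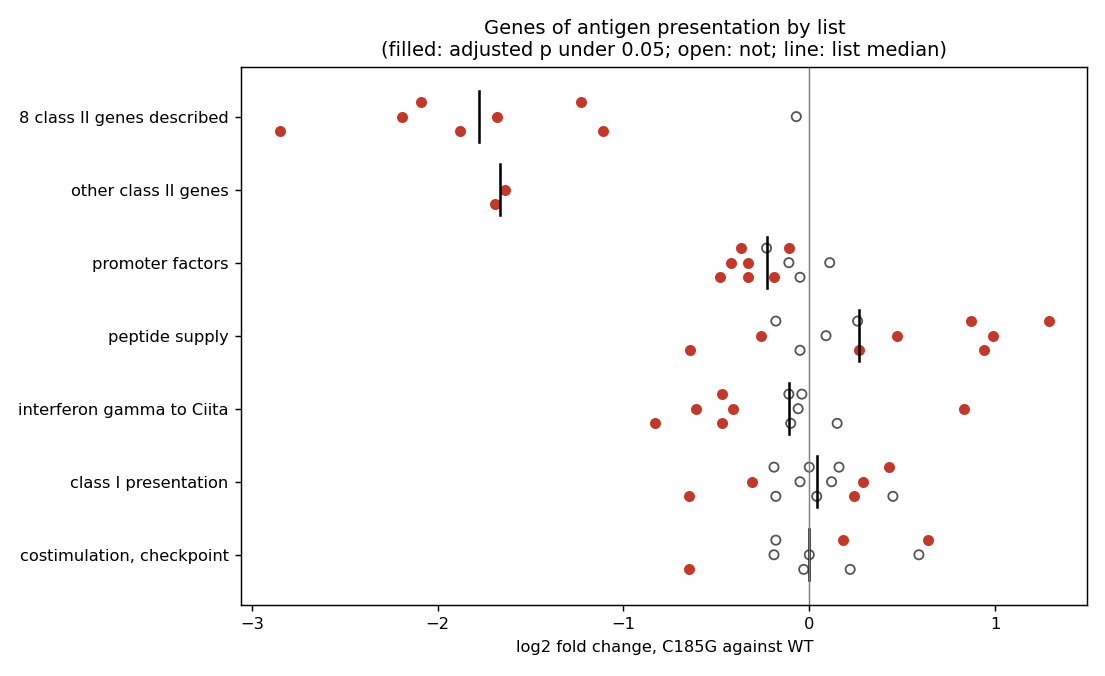
Log2 fold change in C185G against WT (horizontal axis) of each measured gene on 7 lists of antigen presentation; filled points passed limma's adjusted p under 0.05, open points did not, and lines are list medians. The class II genes lie between -2.85 and -0.07, while the medians of the 5 lists that hold no class II genes lie between -0.23 and 0.27.

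Position on the chromosome was compared as well. The 6 members on chromosome 17 lie between 34119541 and 34316674 (GRCm38), a span of 197134 bases, and 6 other measured genes lie in or reach into it. Apart from H2-DMb2, these were Psmb8, Psmb9, Tap1, Tap2 and Brd2, a transcriptional regulator. Of the 5, 1 was higher (Tap2) and 1 lower (Brd2, -0.41, adjusted p = 0.000278) in C185G than in WT, with a range of -0.41 to 0.24. Over all genes 27.3% were called higher and 27.8% lower. Against C185Gneo, 1 of the 5 was higher and 2 were lower, with a range of -0.38 to 0.24. The shares over all genes were 29.2% and 28.7% there. The 2 lower were Psmb9 (-0.38, adjusted p = 0.00678) and Brd2 (-0.33, adjusted p = 0.00135). Psmb8 averaged 17.7 ± 1.73 normalized CPM in C185G and 17.7 ± 2.15 in WT.

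By profile over the 12 libraries, the genes nearest to the class II group were Mlc1, a membrane protein gene, Atp6v1c2, a subunit of the vacuolar proton pump, Tbc1d4, a Rab GTPase-activating protein, and Npw, neuropeptide W. Likeness was the root mean square difference in centred log2 values from the mean profile of the 7 members with at least 5 normalized CPM, and 11064 genes were searched. It was 0.135 for Mlc1, 0.149 for Atp6v1c2, 0.152 for Tbc1d4 and 0.153 for Npw, beside 0.129 for H2-Ab1, 0.357 for Cd74 and 0.652 for Ciita. These members are part of the mean profile, which lowers their own differences from it. Mlc1 had 78.3 ± 11 normalized CPM in C185G, 328 ± 44.5 in C185Gneo and 315 ± 48.5 in WT.

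Cells other than AEC2 also express class II genes, and their markers were read beside the members. Of 11 leukocyte markers, 1 was higher and 1 lower in C185G against WT, and 5 were higher and 1 lower against C185Gneo. Among all genes, 27.3% were called higher and 27.8% lower against WT. Against C185Gneo these shares were 29.2% and 28.7%. Summed, the 11 markers had 247 to 285 normalized CPM in C185G, 364 to 434 in C185Gneo and 388 to 495 in WT, so that C185G lay below both controls. The one lower against WT was Lcp1 (-0.90, adjusted p = 5.09e-07), at 207 ± 8.13 normalized CPM in C185G and 388 ± 43.3 in WT, far above the others. The remaining 10, a set chosen after these values were seen, summed to 48 to 74.3 normalized CPM in C185G, 37.2 to 51.7 in C185Gneo and 41.5 to 57.5 in WT, where the groups overlapped. Ptprc, which encodes CD45, had 8.03 ± 1.12 in C185G and 7.82 ± 1.34 in WT (adjusted p = 0.818). The sum over the 8 class II genes, in comparison, was 743 to 1040 normalized CPM in C185G, 2453 to 3241 in C185Gneo and 2268 to 2737 in WT.

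Dendritic cell markers (8 of 12 measured) summed to 39.8 to 64.9 normalized CPM in C185G, 27.1 to 32 in C185Gneo and 32.8 to 44.3 in WT, with 2 higher and 1 lower in C185G against WT and 5 higher and 1 lower against C185Gneo. The one lower against WT, Siglech of plasmacytoid cells, had 1.17 ± 0.391 in C185G and 3.96 ± 1.34 in WT (-1.72, adjusted p = 9.46e-05). Macrophage markers (6 of 16 measured) summed to 59.6 to 75.8 in C185G, 55.9 to 68.1 in C185Gneo and 62.7 to 80.6 in WT, with 3 higher and 1 lower in C185G against either control. B cell markers (3 of 12 measured) summed to 16.7 to 20.4 in C185G, 19.8 to 25.1 in C185Gneo and 20.2 to 29.6 in WT, with 1 lower in C185G against either control. It was Cd79b (-0.47 against WT, adjusted p = 0.00563). No marker measured on these 4 lists was at 0 reads in any library. Ms4a1, Xcr1, Clec9a, Marco and Siglecf are among the listed markers that were not found among the measured genes. Endothelial markers (8 of 10 measured) summed to 116 to 138 in C185G, 144 to 230 in C185Gneo and 158 to 248 in WT, with 6 lower in C185G against WT and 7 against C185Gneo. All 14 AEC2 markers were called lower in C185G against either control. Against WT they had a median of -1.34 and a range of -2.64 to -0.32. Beside the counts on all these lists stand 27.3% of all genes higher and 27.8% lower against WT. Against C185Gneo the shares were 29.2% and 28.7%. The part of these cell types in the class II levels was not tested.

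**Figure D5:**
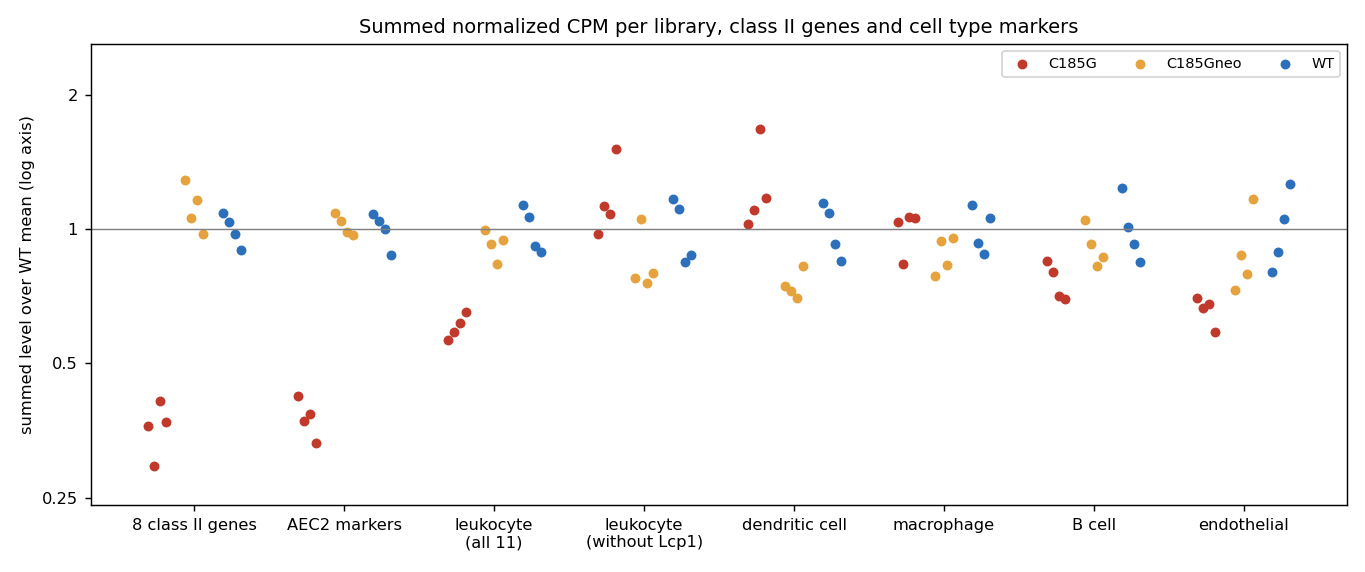
Summed normalized CPM per library over the 8 class II genes and over 6 lists of cell type markers (leukocyte with and without Lcp1), divided by the mean of WT (vertical log axis); points are libraries of C185G, C185Gneo and WT. The C185G points of the class II genes (743 to 1040 normalized CPM before division) and of the AEC2 markers lie below both controls, as by less do those of all 11 leukocyte markers and of the endothelial markers, and those of the macrophage markers overlap them. Those of the B cell markers and of the leukocyte markers without Lcp1 overlap both controls too. For the dendritic cell markers the C185G points (39.8 to 64.9 before division) lie above C185Gneo (27.1 to 32) and overlap WT (32.8 to 44.3).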

How the data were processed

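Each library has 1 deposited file of log2 values. Judged by the values, the authors took the log2 of (count + 0.5) times a factor of the library's own. Whole counts came back for 100% of values within 1e-06. STAR, limma and mm10 are named in the submitters' processing notes, without versions. Not given in the sources used here were the counting tool, its annotation and its use of strand, so reads of near-identical, overlapping and antisense genes may be shared. Symbols, positions and exon lengths came from GENCODE mouse release 21 (GRCm38), which named 16017 genes. Normalized CPM are counts on the authors' scaling, brought to the mean scaled total. Scaled totals differed by at most 1.084 times, so changes are relative to the bulk of the transcriptome.

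One limma model (3.58.1, under R 4.3.3, with trend and robust on) took all 12 libraries, with a coefficient per genotype. P-values were adjusted by Benjamini-Hochberg over all 16080 genes, with a threshold of 0.05. The fit was also tested on simulated data. The offset of 0.5 understates changes of genes with few counts. Ratios of 2 genes were tested by two-sided exact permutation over libraries. No list was tested as a set. Members, lists, ratio pairs and alternatives were chosen with earlier results of these data known. Named genes were the 8 members, the 5 genes of smallest p per list in C185G against WT with called exceptions to a list's direction, and the 4 nearest in profile. A gene that this rule takes in is not reported here. Rfx5, Rfxap, Ctss, H2-K1, Nlrc5, Brd2, Psmb8, Psmb9, Ptprc, Lcp1, Siglech, Cd79b, Ccr7, Ccl22, Chil3 and Mertk were named for their roles or after their values were seen. Promoter windows came from RefSeq (GRCm38.p6).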

Additional observations from a re-analysis of the deposited data

Results flagged for a closer look

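H2-Eb1 in C185G replicate 3 stood apart from its group. It had 97.1 normalized CPM, while the other 3 C185G libraries held 60.5 to 66.5. The gap to its nearest neighbour was larger than a sample of 4 from one distribution usually gives. Of 39 sets of 4 libraries checked this way, over the 8 genes, Sftpc and the ratios, 1 was past that limit, and chance puts about 5% past it. The level stayed below the lowest control library, and H2-Eb1 was still called without that library, at -1.83 against WT and -2.06 against C185Gneo (log2 fold change).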

How the results depend on the processing

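The calls of the 7 lower genes in both C185G comparisons held under every alternative run: limma without the trend, quantile normalization, library totals, an offset of 2 reads, a minimum mean of 5 normalized CPM, only the 8 libraries compared, the replicate block, library quality weights, voom weights and each of 12 libraries left out. Members called lower stayed at 7 in each, and at 0 higher or lower in C185Gneo against WT. H2-Ob was never called, and its sign was not settled. In C185G against WT it was 0.01 with quantile normalization, 0.01 with library totals, and -0.23 to 0.04 with 1 library left out. Against C185Gneo it was -0.07 with quality weights, and -0.10 to 0.21 with 1 library left out. In C185Gneo against WT it was -0.32 to 0.03 with 1 library left out. The minimum of 5 normalized CPM leaves H2-Ob out.

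Over all genes, C185Gneo against WT gave 87 calls, 54 without the trend, 162 with quality weights, and 40 to 112 with 1 library left out. With library totals, 59.9% of calls in C185G against WT were higher, against 49.6% on the authors' scaling. With the replicate block, 8670 genes were called in C185G against WT, beside 8852 without it, and 7 members. Titles give the groups the same replicate numbers, but 3 of 12 same-numbered pairs deviated together at a correlation over 0.1, and 5 of 12 libraries correlated best with their own number, so the numbers were not taken as pairs. The ratio tests cannot pass with a library left out, since 3 against 4 allows no p under 0.0571. Of the other named genes' values under these alternatives, 1372 kept their direction and side of the threshold, 18 lost the call and 9 gained it; the cause was not tested. H2-Ob rests on 19 to 35 reads per library, which limits its precision.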

Other observations

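Ccr7 and Ccl22, known from migratory dendritic cells, were picked from the 8 measured dendritic cell markers after their values were seen. Ccr7 ranged from 3.3 to 14.5 normalized CPM in C185G, 2.44 to 3.11 in C185Gneo and 4.31 to 5.49 in WT. Ccl22 ranged from 1.85 to 9.54 in C185G, 0.892 to 2.09 in C185Gneo and 2.12 to 2.9 in WT. Against C185Gneo both were higher in C185G (Ccr7 1.56, adjusted p = 0.00224, and Ccl22 2.12, adjusted p = 0.00103), and against WT neither was called. Of the 8 markers, 5 were higher and 1 lower against C185Gneo, beside 29.2% and 28.7% of all genes. The lower one was Siglech (-1.10, adjusted p = 0.00299). Against WT, 2 were higher and 1 lower, beside 27.3% and 27.8% of all genes. Whether more such cells were present was not tested. The macrophage gene Chil3 was higher in C185G than in WT (1.69, adjusted p = 0.000815), at 5.95 ± 2.76 normalized CPM in C185G and 1.74 ± 0.628 in WT. Mertk, a receptor of phagocytes, was lower (-1.18, adjusted p = 2.75e-05), at 3.75 ± 0.559 in C185G and 8.53 ± 1.2 in WT. Chil3 was 1 of 3 higher and Mertk the 1 lower among the 6 measured macrophage markers in C185G against WT. The shares over all genes were 27.3% higher and 27.8% lower.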
